A study of Rattus norvegicus with 8 samples.

Results

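Genes of cell division and DNA replication were followed through the zones of the rat femur growth plate, the cartilage layer in which long bones lengthen. The list holds 42 genes chosen for their known roles: cyclins, mitotic kinases, spindle proteins, the replicative helicase, fork proteins and enzymes of nucleotide supply. A gene was measured where a probe set carried its symbol and no other, and the probe set with the highest mean stood for it. By that rule 39 of the 42 genes were measured, out of 14217 genes with such a probe set. No probe set carried Cdc6 or Tpx2 alone, and Rrm2 shared its probe sets with a second symbol.

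The arrays were Affymetrix rat arrays, 1 for each of 4 zones at each of 2 ages: proliferative at 46 and 42 days, perichondral at 46 and 42 days, reserve at 46 and 42 days, and hypertrophic at 46 and 42 days. Each array received amplified RNA pooled from 3 rats. The strain, the sex, the way the zones were separated and whether pools of different zones shared rats are not given in the sources used here. The ages serve as the replicates of a zone, so n = 2 arrays per zone, and every p-value between zones is read against a spread between pools of unlike age. Values are log2 levels, meaning log2(intensity + 16) after quantile normalization, on which the median probe set of every array lies at 8.25. Differences are on the same scale and understate those of dim genes.

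A dividing cell first licenses its replication origins by loading the Mcm helicase with the help of Cdt1, then copies its DNA at forks that carry the clamp Pcna, the primase and the ligase. Cyclins switch on Cdk1 for entry into mitosis, the kinases Bub1, Bub1b and Ttk hold the cell until every chromosome is attached, and Cdc20 and Ube2c then direct the cyclins to destruction. In the growth plate, reserve chondrocytes divide rarely, proliferative chondrocytes divide in columns, and hypertrophic chondrocytes have left the cell cycle and enlarge.

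No member gene passed the test between zones or between ages, and the proliferative arrays were not the ones in which the list stood highest. The proliferative arrays had a median member level of 8.60 at 46 days and 8.84 at 42 days. The perichondral medians were 8.71 and 9.22 at 46 and 42 days, the reserve medians 9.56 and 8.73, and the hypertrophic medians 8.83 and 8.89. The highest of these medians belonged to the 46-day reserve array, and the lowest to the 46-day proliferative array. Of the 39 members, 19 had their highest value of the 8 arrays in the 46-day reserve array, against 8.68% of all 31042 probe sets. None had its lowest value there, against 10.8% of all probe sets.

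Many of the genes were dim. A yardstick for dim signal was the 0.95 quantile, 9.46, of 29 measured genes that belong to other organs, such as liver and retina. The mean level of 12 members lay above it (Mki67, Ccnb2, Ccna2, Kif23, Nusap1, Ttk, Ube2c, Cks2, Pcna, Mcm4, Tk1 and Lig1), and 27 did not reach it. In all 8 arrays 10 members exceeded the yardstick, and 14 exceeded it in none. By array, 20 of 39 members stood above it in the 46-day reserve array and between 13 and 15 in each of the other 7, against 21.9% of all probe sets in every array. Separately, 27 members passed the filter on dim probe sets that was tried as an alternative.

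**Figure D1:**
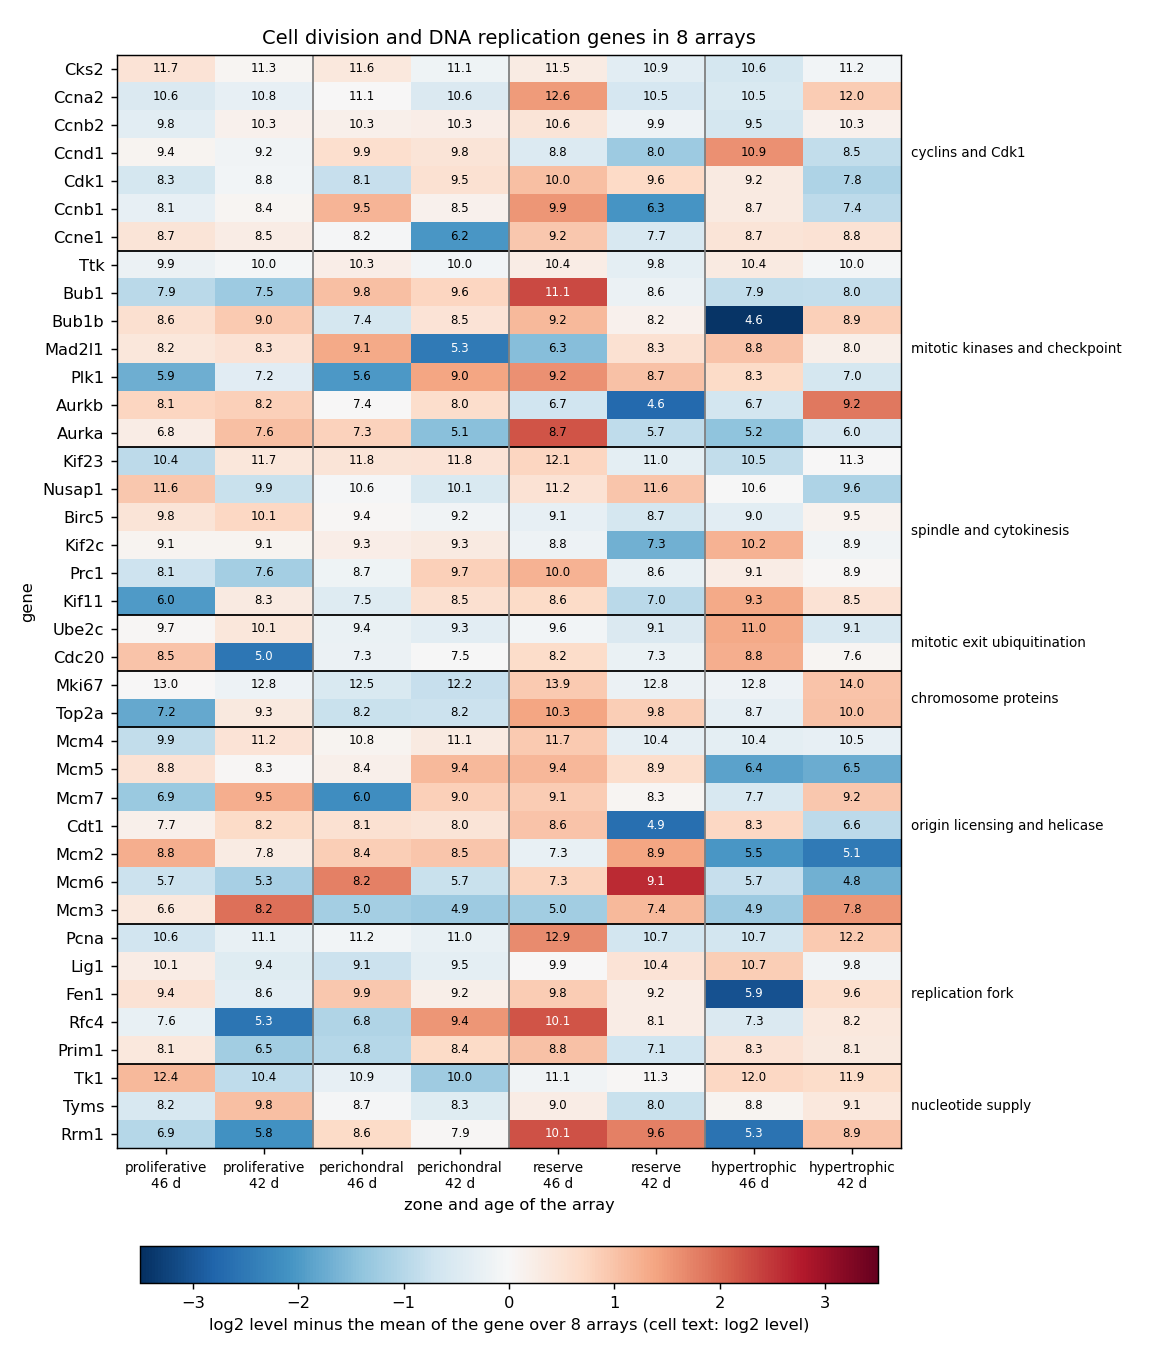
Log2 levels of the 39 measured genes (rows, grouped by role) in the 8 arrays (columns, proliferative, perichondral, reserve and hypertrophic, each at 46 then 42 days). Colour gives the level minus the gene's own mean over the 8 arrays and the printed number the level; warm cells gather in the 46-day reserve column, where 30 of 39 members lie above the mean of the other 7 arrays.

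The cartilage label was checked against its defining markers. The cartilage collagen Col2a1 had levels between 15.86 and 17.80 in all 8 arrays. Col10a1, the collagen of hypertrophic chondrocytes, stood at 15.26 and 16.93 in the hypertrophic arrays at 46 and 42 days, against 10.88 to 13.78 in the other 6. Other hypertrophic markers did not, as a list, set that zone apart from reserve. The collagenase Mmp13 stood at 14.73 and 14.75 in the reserve arrays at 46 and 42 days, beside 14.09 and 14.73 in the hypertrophic arrays. Of 10 such markers 5 were higher and 5 lower in reserve minus hypertrophic, with a median of 0.06. The 10 markers had a median of -0.35 for proliferative minus hypertrophic, with 4 higher and 6 lower. For perichondral minus hypertrophic it was -0.85, with 1 higher and 9 lower. All 12 cartilage matrix genes were higher in proliferative than in hypertrophic cartilage, with a median of 1.22. All 12 were likewise higher in perichondral (median 1.10) and in reserve (median 1.34) than in hypertrophic cartilage, so they did not single out the proliferative arrays. Of 7 markers of proliferative chondrocytes 3 were higher and 4 lower in proliferative minus the mean of the other 3 zones. Their median was -0.18, so that list did not single out the proliferative arrays. Of 7 markers of resting chondrocytes 6 were higher and 1 lower in reserve minus hypertrophic, with a median of 2.12. Their median was -1.12 for proliferative minus reserve and -0.84 for perichondral minus reserve, each with 1 higher and 6 lower. The summed intensity of 6 osteoblast genes was 89658 and 86007 in the reserve arrays at 46 and 42 days. It was 10124 and 135108 in the hypertrophic, 21449 and 50449 in the perichondral, and 2559 and 3333 in the proliferative arrays. Median intensities of the arrays as deposited ran from 226.6 to 348.9, and having so few arrays limits how precise any value here can be. Because the zones are bulk tissue, fewer cells of a type and less RNA per cell cannot be told apart.

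Cyclins and Cdk1 drive the cycle forward, and none of the 7 passed the test in any of the 8 comparisons. Ccnd1, the cyclin of G1, stood at 46 and 42 days at 9.40 and 9.18 in the proliferative arrays, 9.89 and 9.76 in the perichondral arrays, 8.83 and 8.04 in the reserve arrays, and 10.92 and 8.46 in the hypertrophic arrays. Its highest value was the 46-day hypertrophic one, and the 46-day array was the higher of the pair in every zone. Ccnd1 was the only member to do so, against 8.58% of all probe sets, and none was lower at 46 days in every zone, against 7.73%. Between ages its difference was 0.90 (SE 0.52), with an adjusted p of 0.669 from limma with Benjamini-Hochberg adjustment. The other probe sets of Ccnd1 were not higher at 46 days in every zone. The brighter of them was lower at 46 days in every zone but hypertrophic. For proliferative minus reserve it gave -0.83, against 0.85 for the probe set used.

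Cdk1, the kinase of mitotic entry, read 8.32 and 8.84 in the proliferative arrays at 46 and 42 days, 8.12 and 9.48 in the perichondral arrays, 9.99 and 9.64 in the reserve arrays, and 9.24 and 7.85 in the hypertrophic arrays. Both reserve arrays lay above the other 6. Proliferative minus reserve was -1.23 (SE 0.80), with an adjusted p of 0.752 in limma, so the gap did not pass the test although the arrays of both zones did not overlap. Its partner Ccnb1, the main mitotic cyclin, read 8.05 and 8.42 in the proliferative arrays at 46 and 42 days, 9.53 and 8.50 in the perichondral arrays, 9.88 and 6.27 in the reserve arrays, and 8.67 and 7.43 in the hypertrophic arrays. The reserve arrays held both its highest and its lowest value. A second Ccnb1 probe set was also highest in the 46-day reserve array, at 9.27, but lowest in the 42-day hypertrophic array, at 4.69. For proliferative minus reserve that probe set gave -1.88, against 0.16 for the probe set used. Ccna2, the cyclin of S phase and early mitosis, was highest in the 46-day reserve array at 12.55 and next in the 42-day hypertrophic array at 11.96, while the other 6 arrays lay between 10.48 and 11.08. Ccnb2 ranged from 9.50 to 10.56 and the Cdk1 partner Cks2 from 10.63 to 11.73, and Ccne1, the cyclin of S phase entry, ranged from 6.24 to 9.21.

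Mki67 and Top2a, proteins of the chromosomes of cycling cells, are common marks of proliferation. Mki67 read 13.04 and 12.84 in the proliferative arrays at 46 and 42 days, 12.51 and 12.22 in the perichondral arrays, 13.94 and 12.83 in the reserve arrays, and 12.84 and 14.02 in the hypertrophic arrays. Its highest values were in the 42-day hypertrophic and the 46-day reserve arrays, and both perichondral arrays lay below the other 6. Proliferative minus the mean of the other 3 zones was -0.12 (SE 0.51), with an adjusted p of 0.977 in limma.

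Top2a, the topoisomerase that untangles sister chromosomes, read 7.18 and 9.31 in the proliferative arrays at 46 and 42 days, 8.18 and 8.22 in the perichondral arrays, 10.35 and 9.81 in the reserve arrays, and 8.66 and 9.98 in the hypertrophic arrays. The 46-day proliferative value was the lowest of the 8. Proliferative minus reserve was -1.83 (SE 0.84), with an unadjusted p of 0.0428 and an adjusted p of 0.639 in limma. A second Top2a probe set gave -0.13 for the same comparison.

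**Figure D2:**
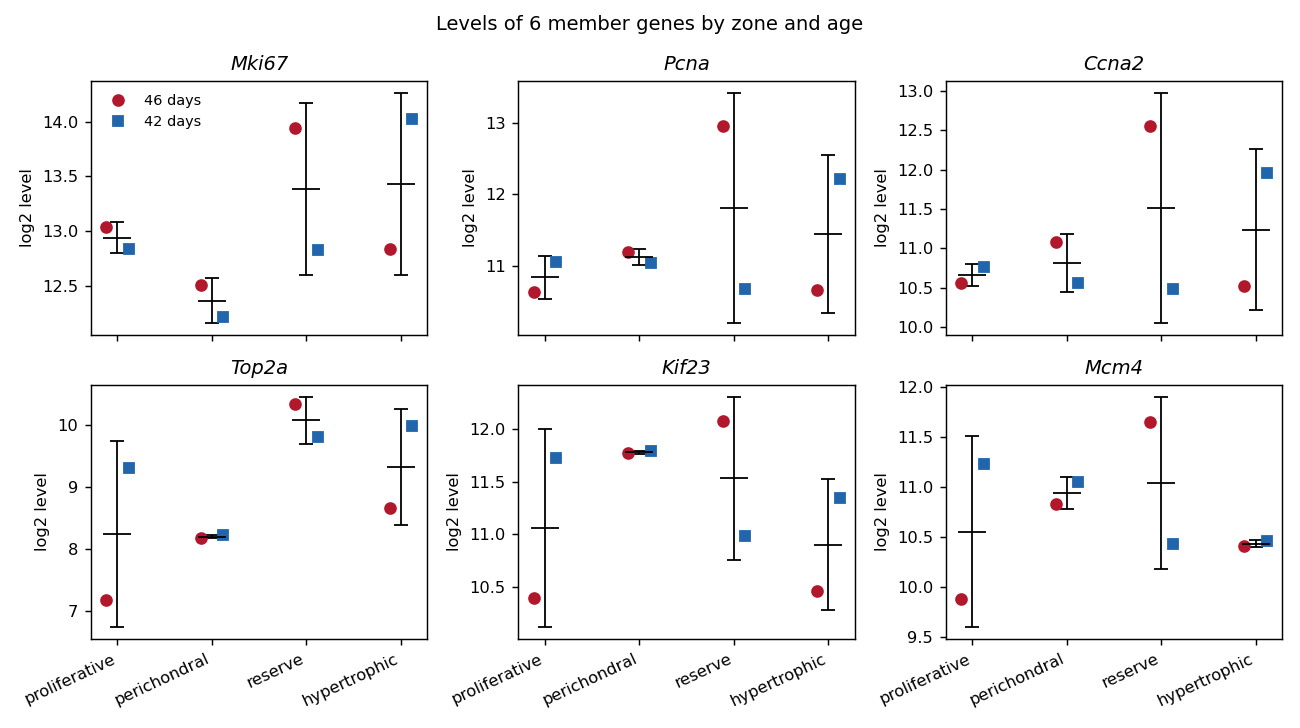
Log2 levels of 6 member genes (panels) in the proliferative, perichondral, reserve and hypertrophic zones (horizontal axis). Circles are 46-day arrays, squares are 42-day arrays, and bars give the zone mean with its SD (n = 2); in Mki67, Pcna and Ccna2 the widest bars belong to the reserve and hypertrophic zones, where the high array is the 46-day one in reserve and the 42-day one in hypertrophic cartilage.

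Mitotic kinases and the spindle checkpoint followed no common order of zones. Bub1, a checkpoint kinase, read 7.87 and 7.54 in the proliferative arrays at 46 and 42 days, 9.85 and 9.55 in the perichondral arrays, 11.10 and 8.61 in the reserve arrays, and 7.94 and 7.96 in the hypertrophic arrays. Both proliferative arrays lay below the other 6, by a narrow margin from the hypertrophic pair. Its difference was -2.00 (SE 0.86) for proliferative minus perichondral and -2.15 (SE 0.86) for proliferative minus reserve, with adjusted p of 0.963 and 0.616 in limma. Aurkb, the kinase of the chromosomal passenger complex, read 8.10 and 8.19 in the proliferative arrays at 46 and 42 days, 7.37 and 7.97 in the perichondral arrays, 6.67 and 4.63 in the reserve arrays, and 6.72 and 9.19 in the hypertrophic arrays. Both reserve arrays lay below the other 6, at 46 days only just under the 46-day hypertrophic array. Proliferative minus reserve was 2.49 (SE 1.23), with an adjusted p of 0.673 in limma, and 1.47 without the 42-day reserve array.

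Bub1b, the checkpoint partner of Mad2l1 at Cdc20, read 8.60 and 8.96 in the proliferative arrays at 46 and 42 days, 7.42 and 8.51 in the perichondral arrays, 9.17 and 8.19 in the reserve arrays, and 4.62 and 8.89 in the hypertrophic arrays. The 46-day hypertrophic value set the zone apart alone: proliferative minus hypertrophic was 2.03 (SE 1.22, adjusted p 0.927 in limma) with it and -0.11 without it. Ttk, another checkpoint kinase, was among the steadiest members, at 9.78 to 10.41. Plk1, which acts from mitotic entry to cytokinesis, ranged from 5.63 to 9.24, Aurka, the kinase of the spindle poles, from 5.08 to 8.74, and Mad2l1 from 5.29 to 9.11. Both Plk1 and Aurka were highest in the 46-day reserve array.

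Among the spindle and cytokinesis genes, Kif11, the motor that separates the spindle poles, read 6.0 and 8.29 in the proliferative arrays at 46 and 42 days, 7.51 and 8.53 in the perichondral arrays, 8.64 and 7.03 in the reserve arrays, and 9.29 and 8.49 in the hypertrophic arrays. Proliferative minus hypertrophic was -1.74 (SE 1.09), with an adjusted p of 0.927 in limma, and without an array it ran from -2.89 (42-day proliferative left out) to -0.60 (46-day proliferative left out). Birc5, the survivin subunit of the passenger complex, was the only member whose proliferative arrays, at 9.80 and 10.06 at 46 and 42 days, both lay above the other 6, where it ranged from 8.73 to 9.47. Proliferative minus the mean of the other 3 zones was 0.79 (SE 0.54) for Birc5, with an adjusted p of 0.873 in limma. Prc1, which bundles midzone microtubules, lay at 8.11 and 7.64 in the proliferative arrays at 46 and 42 days, below the 8.57 to 10.04 of the others. Kif23, a cytokinesis motor, ranged from 10.39 to 12.08, Nusap1 from 9.55 to 11.60, and Kif2c, which takes microtubules apart, from 7.33 to 10.25.

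Cdc20, an activator of the anaphase-promoting complex, read 8.54 and 5.02 in the proliferative arrays at 46 and 42 days, 7.35 and 7.54 in the perichondral arrays, 8.19 and 7.31 in the reserve arrays, and 8.83 and 7.62 in the hypertrophic arrays. The gap between its proliferative arrays was the widest of any zone. The age difference was 1.35 (SE 0.84), with an adjusted p of 0.697 in limma, and the 46-day array was the higher in 3 of 4 zones. Without the 42-day proliferative array it was 0.63. The brightest of the unused Cdc20 probe sets read 6.32 and 8.66 in the proliferative arrays at 46 and 42 days, in the opposite order. Of the unused ones only the dimmest kept the order, at 4.99 and 4.46. Ube2c, a ubiquitin-conjugating enzyme of the same complex, ranged from 9.08 to 10.98 and was highest in the 46-day hypertrophic array.

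The replicative helicase is a ring of Mcm2 to Mcm7, and its subunits differed from one another across the zones. Mcm2 read 8.82 and 7.84 in the proliferative arrays at 46 and 42 days, 8.41 and 8.51 in the perichondral arrays, 7.29 and 8.93 in the reserve arrays, and 5.52 and 5.09 in the hypertrophic arrays. Mcm5 read 8.76 and 8.29 in the proliferative arrays at 46 and 42 days, 8.43 and 9.39 in the perichondral arrays, 9.41 and 8.86 in the reserve arrays, and 6.39 and 6.53 in the hypertrophic arrays. Both genes were lowest in the pair of hypertrophic arrays, with no overlap with the other 6 arrays, and no other member was. In limma, Mcm2 differed by 3.02 (SE 1.11, adjusted p 0.894) for proliferative minus hypertrophic, 3.15 (SE 1.11, adjusted p 0.712) for perichondral minus hypertrophic and 2.81 (SE 1.11, adjusted p 0.55) for reserve minus hypertrophic. The same 3 differences of Mcm5 were 2.06, 2.45 and 2.67 (SE 0.90 each), with adjusted p of 0.897, 0.725 and 0.497 in limma. None passed the threshold, although all 6 had an unadjusted p under 0.05, and the level of both genes lay under the yardstick for dim signal in all 8 arrays.

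The hypertrophic pair did not stand apart for Mcm3, Mcm6 or Mcm7. Mcm3 read 6.58 and 8.15 in the proliferative arrays at 46 and 42 days, 5.04 and 4.94 in the perichondral arrays, 5.02 and 7.36 in the reserve arrays, and 4.94 and 7.76 in the hypertrophic arrays. Mcm6 read 5.74 and 5.31 in the proliferative arrays at 46 and 42 days, 8.25 and 5.70 in the perichondral arrays, 7.26 and 9.10 in the reserve arrays, and 5.67 and 4.80 in the hypertrophic arrays. Mcm3 was high in 3 of the 42-day arrays, and Mcm6 was highest in the 42-day reserve array. Mcm7 read 6.90 and 9.48 in the proliferative arrays at 46 and 42 days, 6.04 and 9.04 in the perichondral arrays, 9.11 and 8.29 in the reserve arrays, and 7.66 and 9.16 in the hypertrophic arrays. It was lower at 46 days in every zone but reserve.

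Between zones, Mcm3 differed by 2.38 (SE 1.21) for proliferative minus perichondral, with an adjusted p of 0.963 in limma. Proliferative minus reserve was -2.66 (SE 1.19) for Mcm6, with an adjusted p of 0.637, and -1.74 without the 42-day reserve array. Between ages, Mcm3 and Mcm7 differed by -1.66 (SE 0.78) and -1.57 (SE 0.73), with adjusted p of 0.59 and 0.588 in limma, and Mcm7 by -2.36 without the 42-day reserve array. Mcm4, the one subunit with a mean above the yardstick, ranged from 9.88 to 11.65 with its highest value in the 46-day reserve array. Cdt1, the loader of the helicase, ranged from 4.93 to 8.56, and both extremes were in the reserve zone, with 8.56 at 46 days and 4.93 at 42 days.

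At the replication fork, Pcna, the sliding clamp of the polymerases, read 10.63 and 11.05 in the proliferative arrays at 46 and 42 days, 11.20 and 11.04 in the perichondral arrays, 12.95 and 10.67 in the reserve arrays, and 10.66 and 12.22 in the hypertrophic arrays. Rfc4, a subunit of the loader of that clamp, read 7.60 and 5.31 in the proliferative arrays at 46 and 42 days, 6.80 and 9.39 in the perichondral arrays, 10.07 and 8.12 in the reserve arrays, and 7.34 and 8.24 in the hypertrophic arrays. For both genes the 46-day reserve array was the highest. The difference between proliferative and reserve was -0.97 (SE 0.71, adjusted p 0.779 in limma) for Pcna and -2.65 (SE 1.21, adjusted p 0.641) for Rfc4. Without the 42-day proliferative array the Rfc4 difference was -1.50. Lig1, the ligase that joins new fragments, ranged from 9.13 to 10.74, Fen1, the nuclease that trims them, from 5.91 to 9.88, and the primase subunit Prim1 from 6.55 to 8.80.

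Rrm1, the large subunit of ribonucleotide reductase, gave the largest difference of any member in the 8 comparisons tested. It read 6.88 and 5.76 in the proliferative arrays at 46 and 42 days, 8.55 and 7.92 in the perichondral arrays, 10.12 and 9.64 in the reserve arrays, and 5.31 and 8.87 in the hypertrophic arrays. Both reserve arrays lay above the other 6. Proliferative minus reserve was -3.55 (SE 1.18), with an unadjusted p of 0.00797 and an adjusted p of 0.509 in limma. Rrm1 exceeded the yardstick for dim signal only in the 2 reserve arrays. Its intensities as deposited were 110 and 36 in the proliferative arrays at 46 and 42 days. Tk1, the thymidine kinase of the salvage route, reached 12.38 in the 46-day proliferative array and was lowest in the 42-day perichondral array. Tyms, thymidylate synthase, ranged from 7.96 to 9.80 and was highest in the 42-day proliferative array. Of 2 probe sets that carried both Rrm2 and Rrm2l1, 1 read 9.18 and 9.46 in the proliferative arrays at 46 and 42 days, 8.54 and 9.31 in the perichondral arrays, 11.64 and 11.50 in the reserve arrays, and 9.04 and 11.72 in the hypertrophic arrays. The other read 8.0 and 9.22 in the proliferative arrays at 46 and 42 days, 7.79 and 4.78 in the perichondral arrays, 8.50 and 4.79 in the reserve arrays, and 4.67 and 7.54 in the hypertrophic arrays. They did not follow each other, and neither can be given to either gene.

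No member was called between zones or ages. Calls over all probe sets were so rare that this cannot show whether the members were like or unlike other probe sets. At an adjusted p under 0.05 in limma, 0 of 39 members were called for proliferative minus perichondral, where 0% of all probe sets were. Members called were also 0 of 39 for proliferative minus reserve (0.0226% of all probe sets), proliferative minus hypertrophic (0.0129%), perichondral minus reserve (0%), perichondral minus hypertrophic (0.029%), reserve minus hypertrophic (0.0226%) and proliferative minus the mean of the other 3 zones (0.0193%). Between 46 and 42 days 0 members were called, against 0% of all probe sets. The lowest adjusted p of any member was 0.497, for Mcm5 in reserve minus hypertrophic. Without the 42-day hypertrophic array that zone kept a single array with no spread of its own, so calls against it are not given.

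An unadjusted p under 0.05 was met by 1 member for proliferative minus perichondral (5% of all probe sets), by 2 for proliferative minus hypertrophic (5.52%), by 1 for perichondral minus reserve (3.75%) and by 3 for perichondral minus hypertrophic (6.17%). These shares of members lay near those of all probe sets. For proliferative minus reserve 5 members met it, all lower in the proliferative arrays (Rrm1, Bub1, Mcm6, Top2a and Rfc4), against 7.64% of all probe sets. For reserve minus hypertrophic 5 members met it, all higher in the reserve arrays (Mcm5, Mcm2, Mcm6, Rrm1 and Bub1), against 8.1%. A single member, Rrm1, met it for proliferative minus the mean of the other 3 zones (5.56%), and Mcm3 and Mcm7 met it between ages (8.43%).

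**Figure D3:**
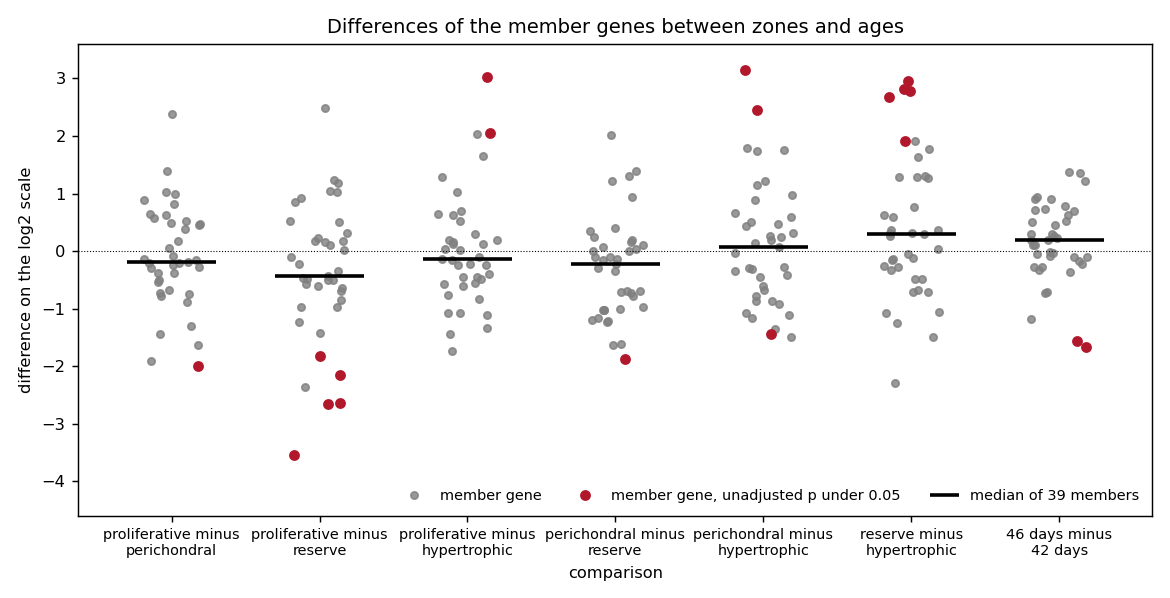
Differences of the 39 member genes (points, log2 scale, vertical axis) in the 6 pairs of zones and between 46 and 42 days (horizontal axis, each named as the first minus the second). Filled points have an unadjusted p under 0.05 in limma and bars mark the median, which runs from -0.44 for proliferative minus reserve to 0.29 for reserve minus hypertrophic; no point has an adjusted p under 0.05.

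The median member difference was -0.19 for proliferative minus perichondral, -0.44 for proliferative minus reserve and -0.14 for proliferative minus hypertrophic, beside medians of 0.02, 0.07 and 0.00 over all probe sets. In proliferative minus reserve 16 members were higher and 23 lower. At 46 days that median was -0.80, and at 42 days it was 0.29. Without the 46-day reserve array it was 0.09, and without the 42-day reserve array -0.88, so a single library set its sign. For proliferative minus the mean of the other 3 zones the median was -0.11, with 17 members higher and 22 lower, beside 0.05 over all probe sets.

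Zones that stood apart from all others were rare for the members, as for the array as a whole. Both proliferative arrays lay above the other 6 for 1 member (Birc5), against 4.41% of all probe sets, and below them for 2 (Bub1 and Prc1), against 3.53%. Both perichondral arrays lay above the others for 0 members, against 2.7%, and below for 1 (Mki67), against 3.17%. The reserve pair was above for 2 members (Cdk1 and Rrm1), against 4.24%, and below for 2 (Aurkb and Kif2c), against 4.82%. The hypertrophic pair was above for 0 members, against 4.67%, and below for 2 (Mcm2 and Mcm5), against 3.93%. These counts stayed close to the shares of all probe sets.

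The 46-day reserve array was the one place where the list stood high. There 30 of 39 members exceeded the mean of the other 7 arrays, against 52% of all probe sets, and the median member exceeded it by 1.01, against 0.05. The same median was 0.05 for the proliferative array at 46 days and 0.09 at 42 days, 0.02 and 0.18 for the perichondral arrays, -0.28 for the reserve array at 42 days, and -0.34 and 0.08 for the hypertrophic arrays. With the values as deposited 19 members were highest in the 46-day reserve array (8.11% of all probe sets), and with median-centred values 21 were (8.29%), in recalculations chosen after the data were seen. Of the 12 members above the yardstick for dim signal, 5 were highest there. No test can be made on an array that stands alone at its zone and age.

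**Figure D4:**
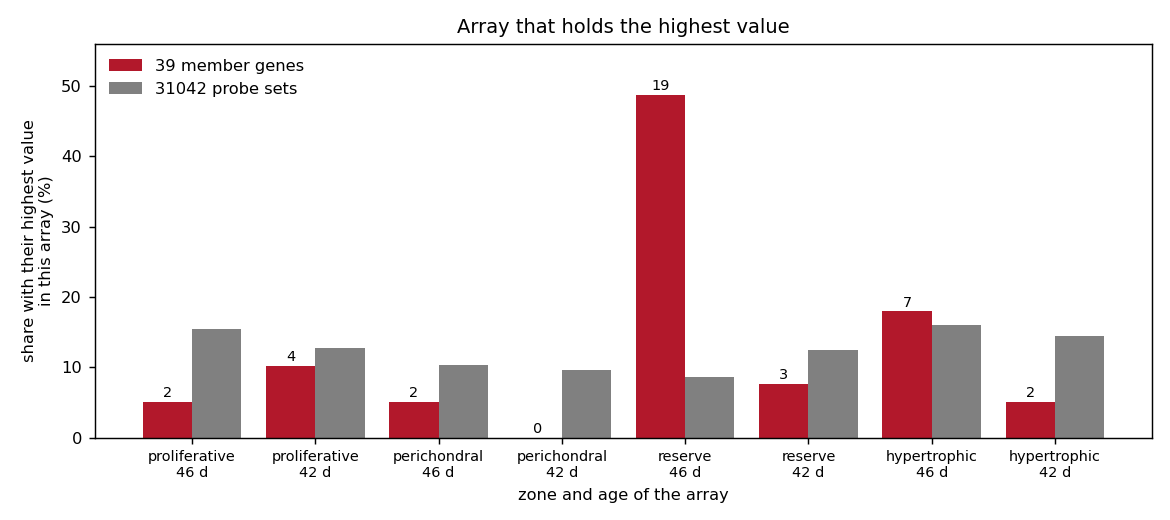
Share (percent) of the 39 member genes (red, with their number above the bar) and of 31042 probe sets (grey) whose highest value of the 8 arrays lies in each array, for the proliferative, perichondral, reserve and hypertrophic zones at 46 and 42 days. The 46-day reserve array holds the highest value of 19 members, and the next, the 46-day hypertrophic array, of 7.

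Within the reserve zone, 32 of 39 members were higher at 46 than at 42 days, against 50.5% of all probe sets, and the median difference was 0.82, against 0.01. Cdt1 was higher by 3.62, Ccnb1 by 3.61, Aurka by 3.08 and Bub1 by 2.49 at 46 days. Pcna was higher by 2.28 there, or 4.86-fold. Mcm3, Mad2l1, Mcm6 and Mcm2 were lower at 46 days, with differences of -2.34, -2.02, -1.84 and -1.64. The unused Mad2l1 probe sets went the other way, at 8.37 and 8.07 at 46 days against 5.17 and 7.75 at 42 days. Cdt1, Aurka, Mcm3, Mad2l1, Mcm6 and Mcm2 lay under the yardstick for dim signal in all 8 arrays. In the other zones the median of 46 minus 42 days was -0.13 for proliferative, 0.10 for perichondral and -0.04 for hypertrophic.

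Markers of blood-forming and immune cells were also high in the reserve zone. The summed intensity of 14 leukocyte and marrow genes was 41220 and 35917 in the reserve arrays at 46 and 42 days, against 1849 to 4498 in the proliferative and perichondral arrays and 2695 and 22212 in the hypertrophic arrays at 46 and 42 days. For 10 erythroid genes the reserve sums were 50953 and 25275 at 46 and 42 days. They were 3536 to 9447 in the proliferative and perichondral arrays, and 4033 and 17256 in the hypertrophic arrays at 46 and 42 days. The median level of these genes did not rise with the sum, at 9.84 and 9.88 in the reserve arrays at 46 and 42 days. Hemgn, which blood-forming cells carry in the nucleus, stood at 14.96 and 12.48 in the reserve arrays at 46 and 42 days, and the neutrophil protein S100a8 at 13.60 and 13.56. The sum of 6 osteoclast genes was 11483 and 17945 in the reserve arrays. In the 46-day reserve array the median leukocyte and marrow gene exceeded the mean of the other 7 arrays by 1.55. That median excess was 1.76 for erythroid, 2.60 for osteoclast, 1.36 for endothelial and 0.53 for fibrous genes. It was 1.01 for the members and -0.31 for the cartilage matrix genes. The control probe sets for Gapdh gave a 3′ to 5′ intensity ratio, which reflects how intact the RNA was, of 3.96 and 8.15 in the reserve arrays at 46 and 42 days, 5.39 and 7.1 in the proliferative, 3.78 and 4.47 in the perichondral and 3.63 and 4.3 in the hypertrophic arrays. The same ratio of the actin control ordered the arrays differently, at 2.32 and 4.65 in the reserve arrays at 46 and 42 days, 4.56 and 1.85 in the proliferative, 0.56 and 1.64 in the perichondral and 4.59 and 1.71 in the hypertrophic arrays. The part of these cells and of RNA quality in the members' levels was not tested.

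Members did not vary together as one group. Over the 8 arrays the mean Pearson correlation between members was 0.0759 in 741 pairs, and 0.108 among the 12 above the yardstick, against 8.82e-04 among all probe sets. It was 0.0889 among 40 other mitosis genes, 0.361 among 14 leukocyte and marrow genes, 0.357 among 10 erythroid genes and 0.723 among 12 cartilage matrix genes. All such values share the same 8 arrays and their normalization. The closest pairs were Ccna2 with Pcna (0.99), Ccnb2 with Kif23 (0.95), Ccnb1 with Cdt1 (0.91), Cdk1 with Plk1 (0.90) and Kif23 with Mcm4 (0.90), and Mcm2 with Mcm5 reached 0.85. Ube2c and Fen1 were the most opposed, at -0.89. For 12 members with several probe sets, the unused ones often did not follow the one used, with correlations from -0.91 for a Cdc20 probe set to 0.69 for Kif2c.

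Promoters of 34 of the 39 members were found in RefSeq (build GRCr8), each from 250 bases before the gene's start to 50 after it. The CHR element, TTTGAA on either strand, which is bound in mitotic genes by the MuvB complexes, was present in 15 of the 34, or 44.1%, against 18.1% of all 27457 promoters of the same length. The CCAAT box, CCAAT on either strand, was present in 21 (61.8%), against 37.7%. An E2F motif, searched on both strands as TTTCCCGC, TTTGGCGC, TTTCGCGC or TTTGCCGC, was present in 9 (26.5%), against 2.25%. The CHR and E2F motifs divided the list by role, and the CCAAT box did so less: 14 of 20 promoters of mitosis genes and cyclins held the CHR element and 1 held the E2F motif, whereas 1 of 14 promoters of replication genes held the CHR element and 8 held the E2F motif. The CCAAT box was present in 14 of those 20 and in 7 of those 14. Neither a match nor its absence says whether a factor was bound in these samples. Shown here, chosen after the values were seen, are Cdk1 (chr20:19265043-19265342, plus strand), the closely matched mitotic pair Ccnb2 (chr8:79981609-79981908, minus strand) and Kif23 (chr8:71320535-71320834, minus strand), and the helicase pair that was low in both hypertrophic arrays, Mcm2 (chr4:122918045-122918344, minus strand) and Mcm5 (chr19:13488563-13488862, plus strand). Capitals mark the motifs on either strand, so that ATTGG is a CCAAT box read on the other strand, and E2F matches overlap one another in Mcm2 and in Mcm5.
Cdk1: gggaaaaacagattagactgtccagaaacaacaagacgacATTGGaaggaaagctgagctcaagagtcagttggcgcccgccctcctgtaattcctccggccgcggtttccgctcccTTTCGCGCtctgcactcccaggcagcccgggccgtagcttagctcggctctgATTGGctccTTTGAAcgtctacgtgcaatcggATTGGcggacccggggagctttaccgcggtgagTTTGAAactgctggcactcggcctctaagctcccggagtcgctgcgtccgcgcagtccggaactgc
Ccnb2: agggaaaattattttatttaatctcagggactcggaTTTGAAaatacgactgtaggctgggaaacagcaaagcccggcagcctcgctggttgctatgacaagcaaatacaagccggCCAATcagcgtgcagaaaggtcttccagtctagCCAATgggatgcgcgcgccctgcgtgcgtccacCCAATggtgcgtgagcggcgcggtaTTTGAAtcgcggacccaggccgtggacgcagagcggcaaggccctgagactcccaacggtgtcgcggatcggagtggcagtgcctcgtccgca
Kif23: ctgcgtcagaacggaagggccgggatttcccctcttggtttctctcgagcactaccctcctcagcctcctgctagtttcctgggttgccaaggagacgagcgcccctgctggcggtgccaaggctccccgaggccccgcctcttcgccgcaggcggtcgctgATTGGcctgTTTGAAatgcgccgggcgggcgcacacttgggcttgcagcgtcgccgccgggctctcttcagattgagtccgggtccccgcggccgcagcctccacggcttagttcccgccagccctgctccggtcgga
Mcm2: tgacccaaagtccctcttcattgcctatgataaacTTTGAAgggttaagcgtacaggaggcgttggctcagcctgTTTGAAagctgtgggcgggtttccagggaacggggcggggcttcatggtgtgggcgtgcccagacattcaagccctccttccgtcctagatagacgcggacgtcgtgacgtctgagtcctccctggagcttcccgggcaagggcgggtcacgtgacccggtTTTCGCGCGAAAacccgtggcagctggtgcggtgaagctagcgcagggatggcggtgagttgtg
Mcm5: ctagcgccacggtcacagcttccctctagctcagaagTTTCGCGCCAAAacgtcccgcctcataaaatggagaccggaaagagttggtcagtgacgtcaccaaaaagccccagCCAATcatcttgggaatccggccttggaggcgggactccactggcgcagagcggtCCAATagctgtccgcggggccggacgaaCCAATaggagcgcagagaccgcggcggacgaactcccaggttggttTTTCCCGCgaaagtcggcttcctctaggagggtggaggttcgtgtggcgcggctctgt

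Other genes of the same processes were described from wider lists. Of 47 other mitosis genes 40 were measured and 0 were called in any comparison. Their median was -0.86 for proliferative minus reserve, with 14 higher and 26 lower, and 14 of the 40 were highest in the 46-day reserve array, where 33 exceeded the mean of the other 7. Spc25, a kinetochore protein, differed by -2.39 (SE 1.03), Kif22 by 1.77 (SE 0.94) and the condensin Smc2 by -1.74 (SE 0.94) for proliferative minus the mean of the other 3 zones, each with an adjusted p of 0.871 in limma.

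Of 37 other replication genes 32 were measured and 0 were called. For proliferative minus reserve their median was 0.10, with 18 higher and 14 lower, and 8 of the 32 were highest in the 46-day reserve array. Against the mean of the other 3 zones, the polymerase subunit Pole differed by -2.16 (SE 1.02) and the origin protein Orc6 by 2.11 (SE 0.90), both with an adjusted p of 0.871 in limma, and Rfc3 by 1.57 (SE 1.06), with 0.873.

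Neither the regulators of G1 nor the inhibitors of the cycle held a called gene. Of 15 G1 cyclins, kinases and E2F factors 14 were measured, with a median of 0.14 for proliferative minus the mean of the other 3 zones. E2f5 differed by -1.28 (SE 0.78), E2f8 by -1.18 (SE 1.02) and Cdk6 by 1.17 (SE 1.28), with adjusted p from 0.871 to 0.905 in limma. Of 18 inhibitors 16 were measured, with a median of 0.23. In the 46-day reserve array 11 of the 14 G1 genes and 10 of the 16 inhibitors exceeded the mean of the other 7 arrays. Cdkn2b, which blocks Cdk4 and Cdk6, differed by 1.75 (SE 0.92), Rb1, the retinoblastoma protein that restrains E2F, by -1.59 (SE 0.99) and Cdkn1a, the p21 inhibitor, by -1.46 (SE 1.03), with adjusted p of 0.871, 0.871 and 0.873 in limma.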

How the data were processed

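Per the labels, total RNA of femur zones came off RNeasy columns, and the biotin label followed Ovation amplification. The deposited values are linear array intensities of 31099 probe sets. MAS5, GCOS and RMA appear in the submitters' processing notes, with neither role nor version. Deposited intensities had a mean of 500.08 to 500.16 in every array after trimming a share of 0.02, and detection calls were not used.

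After removal of 57 control probe sets, 31042 remained, of which 20826 carried 1 gene symbol, 436 several and 9780 none. Intensities plus 16 were log2 transformed and quantile normalized, because the array medians as deposited ran from 7.92 to 8.51. Zones were compared with limma 3.58.1 in R 4.3.3 over all 8 arrays, with a mean per zone and a variance trend. The age comparison kept zone as a covariate. P-values were Benjamini-Hochberg adjusted over all probe sets. The procedure was tested on simulated data. Tables were made with Python 3.11.15.

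Members and lists were chosen with earlier results of these data known. Values in every array are given for 7 measured proliferation markers and for the 4 members with the largest difference in each of 3 proliferative contrasts and between ages. For each wider list, up to 3 genes with the largest proliferative difference are named. Alternatives changed the scaling, offset, dim filter, variance trend, samples, age block and probe set, and left out each array.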

Additional observations from a re-analysis of the deposited data

Results flagged for a closer look

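In 4 comparisons the median member difference had opposite signs at the 2 ages, each age with 1 array per zone. Proliferative minus reserve had a median of -0.80 at 46 days and 0.29 at 42 days. Perichondral minus reserve had a median of -0.75 at 46 days and 0.32 at 42 days. Reserve minus hypertrophic had a median of 0.93 at 46 days and -0.34 at 42 days. Proliferative minus hypertrophic had a median of -0.07 at 46 days and 0.17 at 42 days. The difference between ages was not tested for any of the 4, and the comparisons share arrays.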

How the results depend on the processing

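No member passed an adjusted p of 0.05 in limma in any of 133 recounts under the alternatives. Of 117 medians recomputed, 11 changed sign. Without the 46-day reserve array the median was 0.09 for proliferative minus reserve, 0.31 for perichondral minus reserve and -0.06 for reserve minus hypertrophic, against -0.44, -0.22 and 0.29. Between ages it was -0.16 without either reserve array and -0.08 with median-centred values, against 0.19. For perichondral minus hypertrophic, 0.07, it was -0.14 with the mean of all probe sets per gene, -0.04 without the 46-day hypertrophic array and -0.17 without the 42-day perichondral array. Proliferative minus hypertrophic, -0.14, was 0.01 with the mean of all probe sets per gene. The median for proliferative minus perichondral, -0.19, was -0.24 with median-centred values, 0.01 with the mean of all probe sets per gene, and -0.26 to -0.06 with an array left out. Of 365 single-member differences, 352 kept their direction and their side of the threshold. Against the mean of the other 3 zones, Ccnd1 was 0.08 and Ccnb1 0.00 as deposited, against -0.03 and -0.14. With an array left out, that difference ran from -0.31 to 0.08 for Mki67, from -2.01 to 0.11 for Top2a, from -0.44 to 0.38 for Ccnd1 and from -0.75 to 0.46 for Ccnb1, and Bub1b ran from -0.11 to 4.16 for proliferative minus hypertrophic. Leaving out an array kept the values normalized over all 8, and the cause of these shifts was not tested.

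With age as a replicate block, 0 members were called. Over all probe sets the calls were then 60 for proliferative minus reserve, against 7 without the block, 55 for perichondral minus hypertrophic, against 9, 38 for reserve minus hypertrophic, against 7, 23 for proliferative minus the mean of the other 3 zones, against 6, 13 for proliferative minus perichondral, against 0, 11 for proliferative minus hypertrophic, against 4, and 3 for perichondral minus reserve, against 0. The lowest adjusted p of a member with the block was 0.344 in limma. The labels do not say that same-age pools share rats, and age differences of 2 zones correlated by 0.0225 to 0.0806 over all probe sets. Between ages, median-centring called 3 probe sets higher and 137 lower at 46 days, against 0, and the values as deposited called 2 higher and 43 lower. Without the 42-day hypertrophic array, proliferative minus reserve called 35 probe sets, against 7. Without the 46-day hypertrophic array, proliferative minus reserve called 47, and proliferative minus the mean of the other 3 zones 30, against 6. Dim signal and 2 arrays per zone limit every comparison.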
